A study of Mus musculus with 25 samples.

Results

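The genes described here are the apoptosis and survival genes in sorted cells of the mouse cortex that the labels call neurons, a set of 50 among the 9931 genes with a symbol in the expression table. Members were picked by their gene symbols: the BCL2 family with its BH3-only relatives, caspases, p53 with its binding and induced proteins, MDM2 and MDM4, the inhibitor of apoptosis (IAP) proteins and DIABLO, APAF1, the AIF proteins, FADD, CFLAR and RIP kinases, and the genes named Pdcd and Ddit. Neurons were sorted by fluorescence from the sensorimotor cortex of adult C57BL/6 mice, and their RNA was read at its 3′ end in 25 libraries of 8 groups. In all mice both Rest alleles were floxed, and a tdTomato reporter that Cre switches on was present. Mice called WT received AAV-Syn-GFP and mice called REST cKO received AAV-Syn-Cre, with the human synapsin promoter driving either virus in neurons of any layer. The spinal cord was then crushed completely at a thoracic level (SCI) or received a sham operation, which the labels give as day 0, and neurons were taken 1, 3 or 7 days after SCI. The groups held 4 WT sham, 3 WT SCI day 1, 3 WT SCI day 3, 3 WT SCI day 7, 3 REST cKO sham, 2 REST cKO SCI day 1, 4 REST cKO SCI day 3 and 3 REST cKO SCI day 7 libraries. Genotype therefore came together with the virus and with the colour used for sorting, and these cannot be told apart.

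Cells commit to apoptosis when BH3-only proteins such as Noxa, PUMA, BIM, BID and BAD outweigh the anti-apoptotic proteins BCL2, BCL-XL and MCL1 and free BAX and BAK to open the outer mitochondrial membrane. Cytochrome c then assembles APAF1 with caspase 9, executioner caspases follow, and XIAP holds the caspases back until DIABLO (also called SMAC) displaces it. p53 and the stress factor CHOP, the product of Ddit3, raise several BH3-only genes, and neurons with a cut axon far from the cell body are known to survive in large part. REST is a repressor that binds the RE1 element and keeps neuronal genes silent outside neurons.

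As a check of the labels, Rest itself lay between 0.26 and 2.74 in WT SCI day 7 and between -1.21 and -0.33 in REST cKO SCI day 7 (log2 values, range of libraries). At day 3 the ranges were 0.56 to 2.88 and -1.61 to -0.04, whereas in sham they overlapped, -1.55 to -0.26 in WT and -2.65 to -0.52 in REST cKO. At day 1 the REST cKO libraries, at -0.43 and -0.40, lay inside the WT range of -1.35 to 0.71. The exon removed by Cre is not given in the sources used here, so reads at the 3′ end may lie outside it. The cell type label was checked on marker genes. All 13 neuronal markers were listed, with a summed linear level of 19.5 to 74.4 per library, but so were 13 of 13 microglial markers, with a sum of 91.4 to 151, and also 8 of 8 endothelial (25.6 to 61.4), 7 of 10 astrocyte, 8 of 10 oligodendrocyte and 2 of 5 layer 5 markers. The microglial sum was above the neuronal sum in all 25 libraries, so the label of sorted neurons did not hold for all of the RNA, and the cell type in which a member was transcribed was not determined. The sums cover different genes, are not divided by transcript length and give no share of cells. Between 2.77% and 29.5% of all values in a library were below -2, and the highest share belonged to WT SCI day 3 replicate 5.

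**Figure D1:**
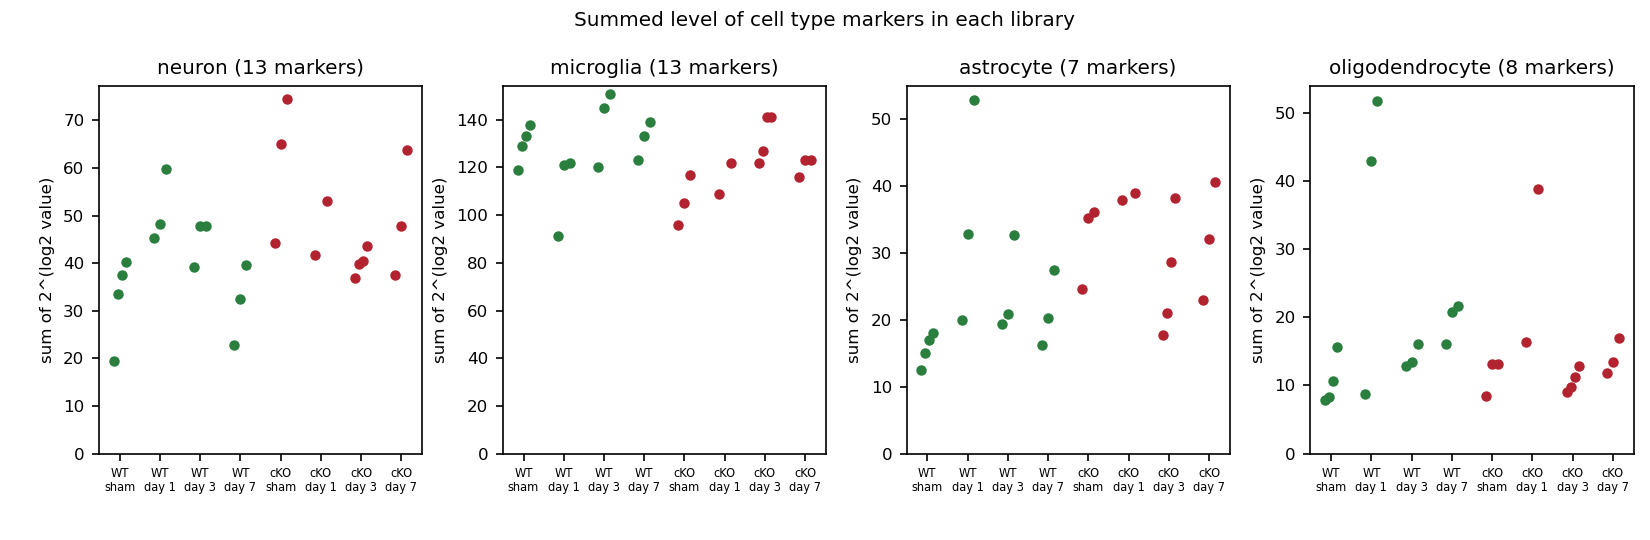
Summed linear level of the cell type markers in each library (vertical axis, sum of 2 to the power of the log2 value) for the 8 groups (horizontal axis, green WT, red REST cKO), 1 point per library. Microglial sums stood between 91.4 and 151 and neuronal sums between 19.5 and 74.4.

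To show where members could meet REST or injury-induced factors, RefSeq promoter windows (build GRCm38.p6, 250 bases before to 50 after a start) were found for 44 of the 50 members, 56 windows in all, and searched on both strands. TTCAGCACC, the left part of RE1, was in 1 member, Diablo, and in 0.371% of all 32851 windows. The right part of RE1, 10 bases around the core GGACAGC, was in none of the members and in 0.137% of all windows. The core GGACAGC alone, which lies inside that part, was in windows of Aifm3, Bbc3, Bcl2l11, Casp8ap2, Ddit3 and Mdm4 and in 6.56% of all windows. TGACTCA, the AP-1 element bound by JUN, was in Aifm3, Ddit3, Mdm4, Pdcd6 and Pdcd7 and in 5.2% of all windows. TGATGCAA, an element bound by CHOP with C/EBP proteins or by ATF4, was in Bcl2a1a, Bcl2a1b and Bcl2a1d (0.895% of all windows), and TGACGTCA, bound by CREB and ATF factors, in Birc2 and Trp53inp2 (1.79%). A match is a string of letters and no evidence of binding.

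The bases before a RefSeq start are printed for 4 members: Diablo for its RE1 part, Aifm3 and Pdcd7 for their AP-1 element beside differences after SCI, and Ddit4l for the largest difference between genotypes, with none of these strings in that window. Capitals mark the RE1 part in Diablo, the AP-1 element in Aifm3 and the same element read on the other strand in Pdcd7. The stretches are 5′ to 3′ on the strand of the gene, from chr5:123524177-123524414 (minus strand) for Diablo, chr16:17489427-17489610 (plus) for Aifm3, chr9:65345818-65346067 (plus) for Pdcd7 and chr3:137623422-137623671 (plus) for Ddit4l. The Ddit4l stretch lies inside the annotated gene, which begins at 137621612 with another transcript whose start was not searched.
Diablo: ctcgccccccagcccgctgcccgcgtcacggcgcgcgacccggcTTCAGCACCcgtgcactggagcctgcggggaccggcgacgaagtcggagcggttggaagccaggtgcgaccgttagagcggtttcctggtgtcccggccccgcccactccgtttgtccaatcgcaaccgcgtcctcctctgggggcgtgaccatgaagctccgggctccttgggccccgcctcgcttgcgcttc
Aifm3: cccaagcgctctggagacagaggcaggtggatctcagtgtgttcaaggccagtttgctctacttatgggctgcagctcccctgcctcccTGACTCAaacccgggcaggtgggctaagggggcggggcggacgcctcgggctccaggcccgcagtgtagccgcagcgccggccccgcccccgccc
Pdcd7: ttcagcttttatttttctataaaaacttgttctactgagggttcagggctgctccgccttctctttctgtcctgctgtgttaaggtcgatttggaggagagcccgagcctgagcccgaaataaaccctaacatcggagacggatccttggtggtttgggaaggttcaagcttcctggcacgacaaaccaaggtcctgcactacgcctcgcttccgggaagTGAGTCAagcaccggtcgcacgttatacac
Ddit4l: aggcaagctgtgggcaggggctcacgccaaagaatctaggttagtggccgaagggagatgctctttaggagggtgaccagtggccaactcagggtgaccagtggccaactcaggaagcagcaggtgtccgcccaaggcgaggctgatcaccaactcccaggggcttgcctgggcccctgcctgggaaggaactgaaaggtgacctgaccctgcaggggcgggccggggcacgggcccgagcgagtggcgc

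Most members were transcribed in the middle range of the table, and their spread between libraries was near that of all genes. The mean log2 value over the 25 libraries was highest for Mcl1, at 2.85 (rank 176 of 9931 genes), followed by Bcl2a1b at 2.70, Pdcd6 at 2.38, Mdm4 at 2.26, Ddit4 at 2.13 and Xiap at 1.94. It was lowest for Fadd at -1.27 and Trp53bp2 at -1.19. These are levels of reads at the 3′ end, and so each gene is best compared with itself. The SD of a gene within its groups was taken from the fit, with 2 sequencing components from the labels included. It had a median of 1.23 over the members and 1.16 over all genes. It exceeded 1 in 28 of the 50 members and in 5753 of all 9931 genes. Mcl1 was the most stable at 0.18, with Bcl2a1b at 0.237 and Ddit4 at 0.373, while Bcl2a1a reached 2.11 and Fadd 1.96. Of the 18 core apoptosis genes named for description, 14 had a row. Bak1, Bok, Bcl2l2 and Casp9 were not analysed here.

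**Figure D2:**
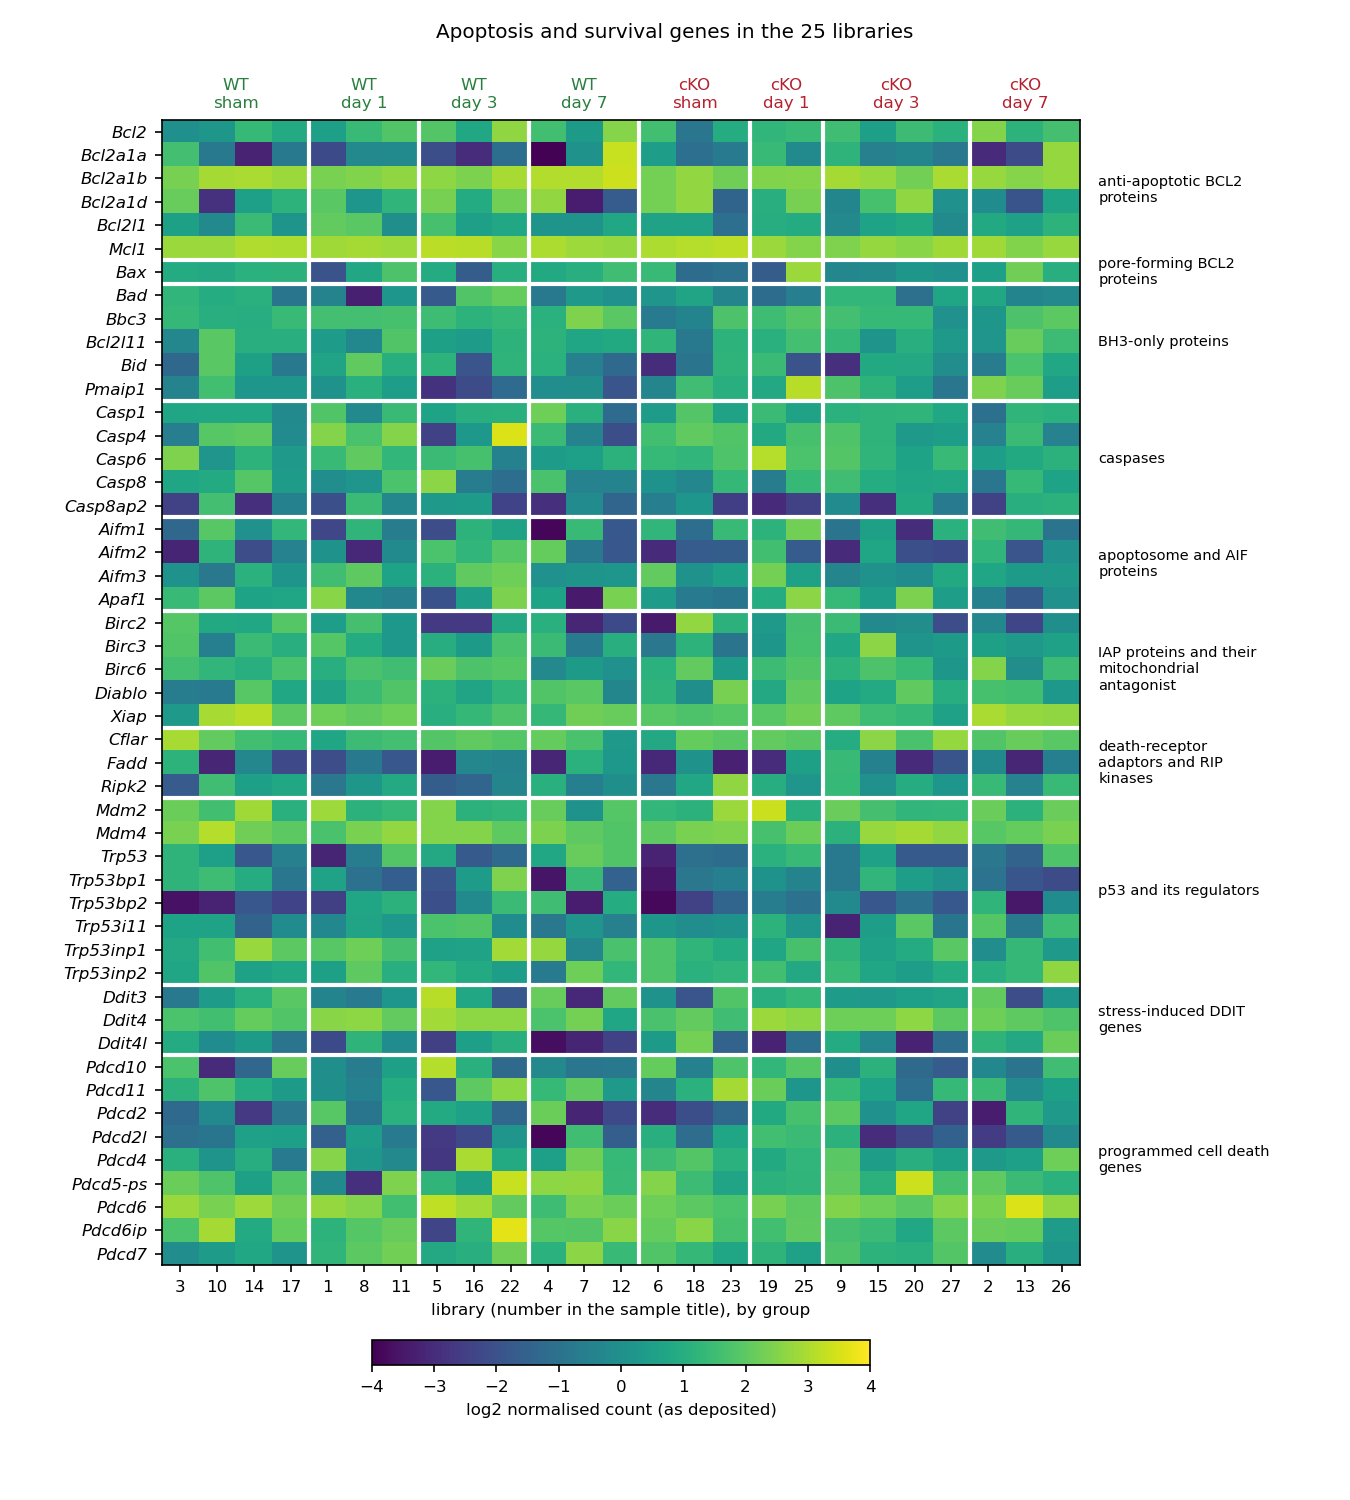
The log2 normalised count (colour, -4 to 4) of 49 of the 50 members (rows, ordered by role) in the 25 libraries (columns, by group and library number). Mcl1 and Bcl2a1b stay high in all libraries, whereas rows such as Fadd, Bcl2a1a and Trp53bp2 swing within groups.

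Some members share sequence at their 3′ end with other transcripts. Of the stretches of 31 bases in the last 300 bases, 100% of those of Pdcd5-ps were also in Pdcd5, and 98.1% of Bcl2a1d, 88.5% of Bcl2a1b and 77% of Bcl2a1a were found in other genes, mostly their own copies on chromosome 9. The shares were 32.5% for Diablo, 26.4% for Pdcd10, 25.3% for Casp8, 17.7% for Bax and 16.1% for Mdm4. Values of these genes are uncertain as measures of 1 locus.

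In the WT libraries, the comparison of each day after SCI with sham asked how the genes stood after SCI where no Cre was given. At day 1, 0 of the 50 members passed an adjusted p of 0.1 in limma (0% of all genes did), 3 had an unadjusted p under 0.05 (6.43% of all genes) and 2 did not overlap sham (7.02% of all genes). Pdcd7, a component of the minor spliceosome first named for a role in cell death, measured -0.07, 0.13, 0.41 and 0.77 in sham and 1.23, 1.99 and 2.30 at day 1. It measured 0.82, 1.03 and 2.26 at day 3 and 1.11, 1.41 and 2.61 at day 7. All injured WT libraries thus lay above all sham libraries. Over sham, the fitted log2 fold change of Pdcd7 was 1.56 (SE 0.597, adjusted p = 0.6561, limma) at day 1, 1.16 (adjusted p = 0.7362) at day 3 and 1.45 (SE 0.579, adjusted p = 0.5799) at day 7. Leaving out WT SCI day 3 replicate 22 brought the day 3 value to 0.75, and leaving out WT SCI day 7 replicate 7 brought that of day 7 to 0.92. The 3 comparisons share their sham libraries. Within the batches that the labels number, the difference at day 1 was 1.44 in batch 1 and 1.86 in batch 2, at day 3 it was 0.65 and 0.59, and at day 7 it was 1.69 and 0.97.

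Pdcd5-ps, a copy of the gene for the apoptosis-linked protein PDCD5, had the smallest p at day 1. It measured -2.92, -0.20 and 2.45 against 0.55, 1.79, 1.87 and 2.19 in sham, so the groups overlapped. The log2 fold change was -2.38 (SE 0.852, adjusted p = 0.6355, limma), and -0.45 without WT SCI day 1 replicate 8. Within batches 1 and 2 the difference was -3.55 and 1.24, of opposite sign. Trp53bp2, which encodes the p53 partner ASPP2, was the remaining member, with a log2 fold change of 2.82 (adjusted p = 0.7568) and overlapping groups. Besides Pdcd7, the member without overlap was Bbc3, which encodes the p53 target PUMA, at 1.59, 1.61 and 1.68 against 0.99, 1.04, 1.33 and 1.40 in sham, with a log2 fold change of 0.61 (SE 0.618, adjusted p = 0.9386, limma). Summed oligodendrocyte markers were 8.7 to 51.7 at day 1 and 7.81 to 15.6 in sham, astrocyte markers 20 to 52.8 and 12.5 to 18, and neuronal markers 45.2 to 59.8 and 19.5 to 40.2, and their part in these differences was not tested. In bulk RNA a change in the number of cells of a type and in the RNA per cell cannot be told apart.

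At WT day 3, 0 of 50 members passed the adjusted threshold (0.0101% of all genes, 1 gene), 5 had an unadjusted p under 0.05 (6.9% of all genes), and in 6 the libraries did not overlap sham (6.54% of all genes). Pmaip1, which encodes the BH3-only protein Noxa, measured -2.83, -2.15 and -1.21 at day 3 and -0.43, 0.21, 0.21 and 1.56 in sham. Every day 3 library was below every sham library, with a log2 fold change of -3.02 (SE 0.95, adjusted p = 0.6007, limma). At day 1 the values, 0.11, 0.45 and 1.07, were within the sham range. By day 7 they were -1.89, -0.07 and -0.04, again overlapping sham. Summed astrocyte markers were 19.4 to 32.6 at day 3 and 12.5 to 18 in sham, neuronal markers 39.1 to 47.8 and 19.5 to 40.2, and endothelial markers 27.8 to 61.4 and 25.8 to 31.7, and their part in the differences at day 3 was not tested.

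A pair of AIF genes lay above sham at day 3. Aifm3, which encodes an AIF-like mitochondrial oxidoreductase, measured 1.14, 2.05 and 2.24 against -0.80, 0.12, 0.14 and 1.10 in sham, which left a gap of 0.04 between the nearest libraries in rounded values. Its log2 fold change was 2.25 (SE 0.737, adjusted p = 0.6034, limma). Aifm2, or FSP1, an oxidoreductase that protects from ferroptosis, measured 1.27, 1.75 and 1.89 against -3.18, -2.12, -0.44 and 1.21, a log2 fold change of 3.50 (SE 1.41, adjusted p = 0.6341, limma). By day 7 Aifm3 was at 0.04, 0.15 and 0.19, inside the sham range. Aifm1, the classical apoptosis-inducing factor, measured -2.10, 0.61 and 1.17 at day 3 and overlapped the sham range.

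Ddit4 and Birc2 completed the 5. Ddit4, or REDD1, a stress-induced inhibitor of mTORC1, measured 1.57, 1.73, 1.82 and 2.11 in WT sham, 2.06, 2.58 and 2.64 at day 1, 2.63, 2.65 and 2.88 at day 3, and 0.69, 1.74 and 2.34 at day 7. The day 3 libraries were all above sham, by a log2 fold change of 1.02 (SE 0.375, adjusted p = 0.629, limma), and day 1 overlapped sham by a single library. Birc2, or cIAP1, a ubiquitin ligase of the TNF receptor complex, measured 0.79, 0.87, 1.89 and 1.91 in sham, -2.68, -2.63 and 0.84 at day 3 and -3.14, -2.19 and 1.07 at day 7. In both, 2 libraries lay far below sham and 1 within it. WT SCI day 3 replicate 5 had 24% of member values below -2, against a median of 8% over libraries. Without it the log2 fold change at day 3 was -3.18 for Birc2 and -2.66 for Pmaip1, and with a term for the share of values under -2 in each library it was -3.13 and -2.92.

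At WT day 7, 0 of 50 members passed (0% of all genes), 4 had an unadjusted p under 0.05 (6.89% of all genes) and 5 did not overlap sham (6.87% of all genes). Ddit4l, or REDD2, which like its relative REDD1 restrains mTORC1, measured -0.91, -0.12, 0.35 and 0.91 in sham. Its day 1 values were -2.19, -0.11 and 1.19, its day 3 values -2.49, 0.51 and 1.03, and its day 7 values -3.69, -3.19 and -2.44. The 3 libraries of day 7 were all below every sham library and the earlier days were split. The log2 fold change at day 7 was -3.32 (SE 1.19, adjusted p = 0.5247, limma). All 3 day 7 values of Ddit4l were below -2. The share of all values below -2 was 11.1% to 17% in the WT libraries of day 7 and 3.85% to 12.1% in WT sham.

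Birc6, or BRUCE, a giant IAP, measured 1.04, 1.26, 1.61 and 1.70 in WT sham and -0.23, 0.05 and 0.35 at day 7, with no overlap and a log2 fold change of -1.30 (adjusted p = 0.6675, limma). At day 3 it had been 1.76, 1.90 and 2.17, all above sham. Birc2 had a log2 fold change of -3.27 (SE 1.28, adjusted p = 0.5718) at day 7, or -4.92 without WT SCI day 7 replicate 4, and -3.78 (adjusted p = 0.629) at day 3. Summed oligodendrocyte markers were 16.1 to 21.7 at day 7, above the 7.81 to 15.6 of sham, and their part was not tested. All 3 WT libraries of day 7 were female and WT sham held 2 male and 2 female libraries, and with a term for sex the log2 fold change at day 7 was -3.39 for Ddit4l, -2.84 for Birc2, -1.23 for Birc6 and 1.27 for Pdcd7.

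**Figure D3:**
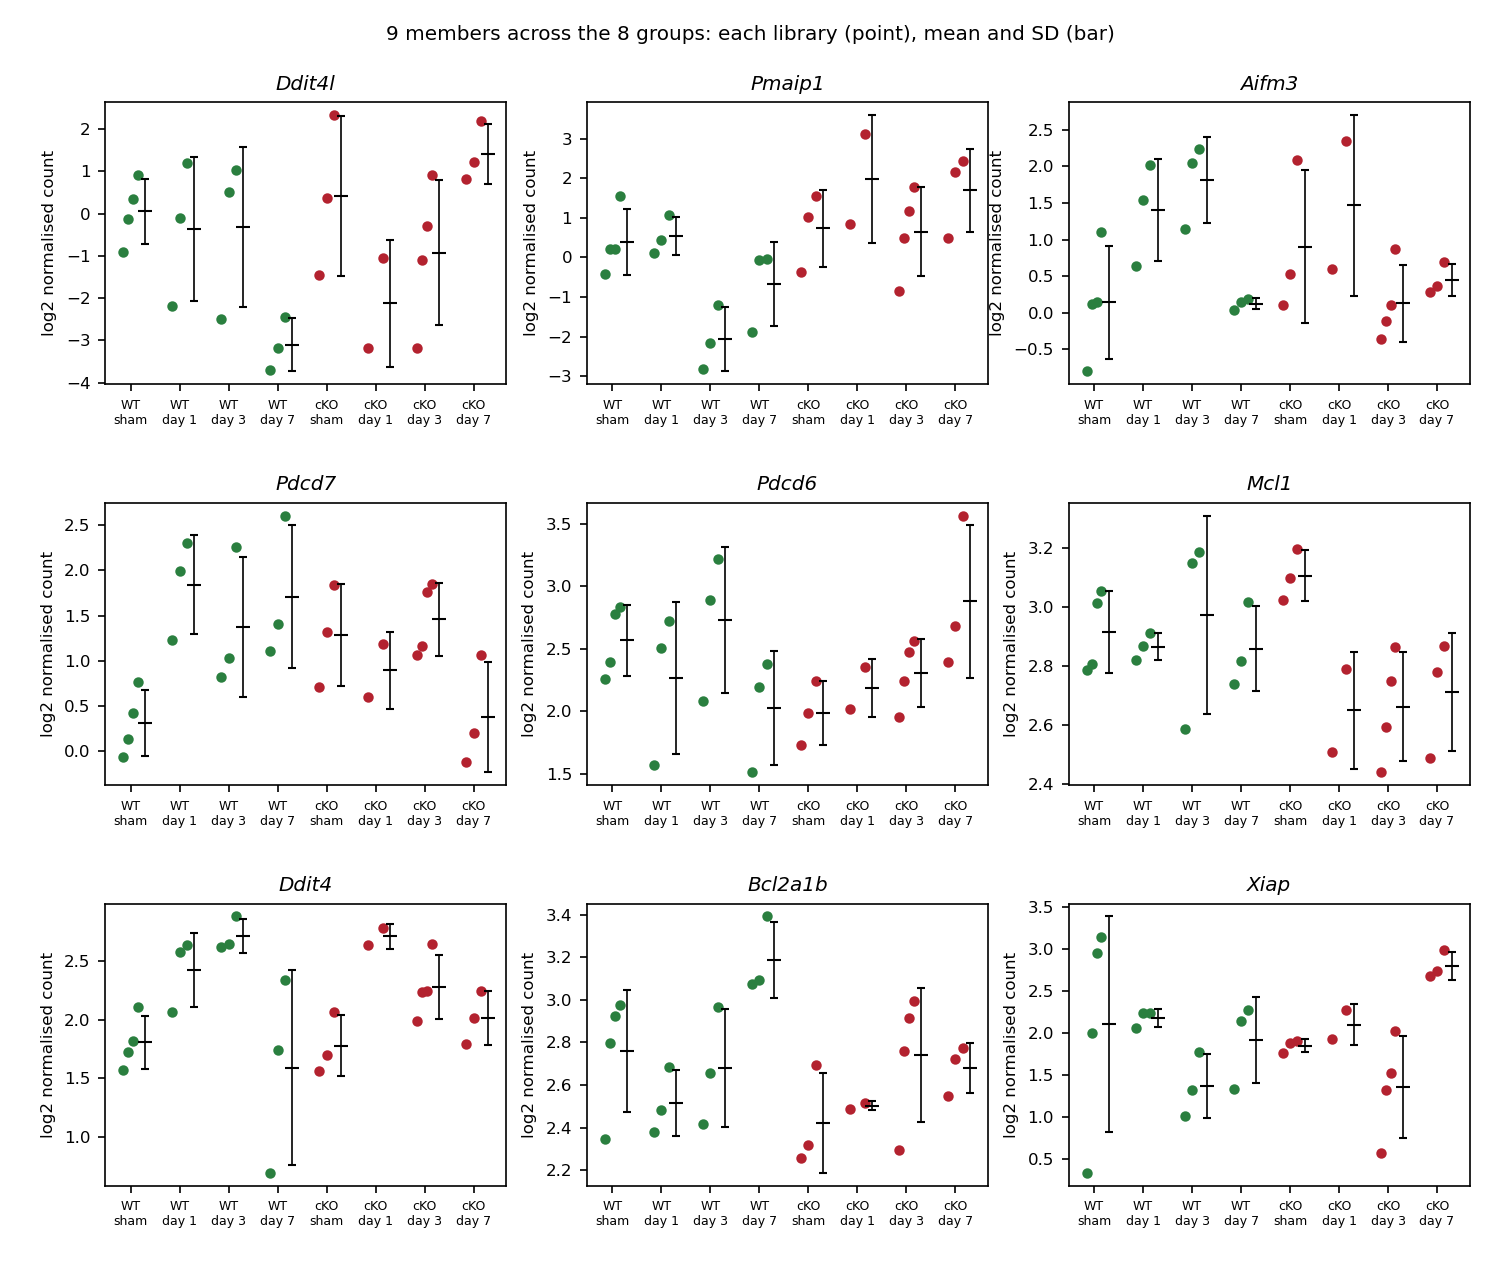
Log2 normalised count (vertical axis) of 9 members in the 8 groups (horizontal axis, green WT, red REST cKO), with each library as a point and the mean and SD as a bar. Ddit4l libraries of WT day 7 lie between -3.69 and -2.44 and those of REST cKO day 7 between 0.82 and 2.20, and Pdcd7 lies above sham on all 3 days in WT.

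In the REST cKO libraries the same days were set against REST cKO sham. At day 1, with 2 libraries, 0 of 50 members passed (0% of all genes) and 5 had an unadjusted p under 0.05 (5.29% of all genes). In 11 members the libraries did not overlap sham, against 20.4% of all genes in so small a group. Of all 50 differences 36 were positive (63% of all genes), with a median log2 fold change of 0.48 over the members and 0.29 over all genes. Ddit4 measured 2.64 and 2.79 against 1.56, 1.70 and 2.07 in sham, a log2 fold change of 0.94 (SE 0.394, adjusted p = 0.9245, limma). Pdcd2, a chaperone of a small-subunit ribosomal protein, measured 0.84 and 1.68 against -2.97, -2.08 and -1.30, a log2 fold change of 3.56 (SE 1.53, adjusted p = 0.9245). Trp53, the gene for p53, measured 1.11 and 1.41 against -3.20, -1.17 and -1.06, a log2 fold change of 3.08 (adjusted p = 0.9245). Neither gene overlapped sham, in a group that only 2 libraries represent. Bbc3 measured 1.52 and 1.85 against -0.73, -0.40 and 1.76, and it overlapped sham by 1 library. Its interaction of genotype and injury at day 1 was 0.96 (SE 0.911, adjusted p = 0.9625, limma). Summed oligodendrocyte markers were 16.4 to 38.9 at day 1 and 8.5 to 13.2 in REST cKO sham, astrocyte markers 37.9 to 38.9 and 24.6 to 36.1, and their part was not tested.

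Mcl1, the gene for a short-lived anti-apoptotic protein, was the member with the least spread. In REST cKO sham it measured 3.02, 3.10 and 3.20. It measured 2.51 and 2.79 at day 1, 2.44, 2.59, 2.75 and 2.86 at day 3, and 2.49, 2.78 and 2.87 at day 7, all below sham. The log2 fold change was -0.49 (SE 0.224, adjusted p = 0.9245, limma) at day 1, -0.56 (SE 0.21, adjusted p = 0.9468) at day 3 and -0.50 (SE 0.218, adjusted p = 0.8564) at day 7. The 3 days share the sham libraries. In WT, sham measured 2.79, 2.81, 3.02 and 3.05 and all 3 days overlapped it. The genotype by injury interaction tested whether the change of Mcl1 from sham differed between genotypes. It gave -0.39 (SE 0.294, adjusted p = 0.936, limma) at day 1, -0.73 (SE 0.332, adjusted p = 0.9503) at day 3 and -0.50 (SE 0.307, adjusted p = 0.8613) at day 7. Summed microglial markers were 96 to 117 in REST cKO sham and 122 to 141 at day 3, neuronal markers 44.3 to 74.4 and 36.9 to 43.6, and their part was not tested.

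At REST cKO day 3, 0 of 50 members passed the threshold (0.0201% of all genes, 2 genes) and 2 had an unadjusted p under 0.05 (4.65% of all genes), Mcl1 and Pdcd10. Also 2 did not overlap sham (6.69% of all genes). Pdcd10, or CCM3, a scaffold of STRIPAK kinases, measured -1.68, -1.24, -0.02 and 1.15 against -0.47, 1.79 and 2.11 in sham. The groups overlapped, with a log2 fold change of -2.67 (SE 1.23, adjusted p = 0.9991, limma). Within batches 1, 2 and 3 the difference was -2.13, 0.42 and -3.47, so batch 2 went the other way, and without the sequencing components the fit gave -1.59. The REST cKO sham libraries were all male, and day 3 replicates 9, 15 and 27 were female. The interaction at day 3 holds the same groups. Over the alternatives other than leaving out a library, with a term for sex among them, the fit gave -2.90 to -1.59 for Pdcd10 and -0.67 to -0.44 for Mcl1.

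At REST cKO day 7, 0 of 50 members passed (0% of all genes) 4 had an unadjusted p under 0.05 (5.67% of all genes) and 5 did not overlap sham (10.7% of all genes). Pdcd6, or ALG-2, a calcium-binding protein of vesicle traffic, measured 2.39, 2.68 and 3.57 against 1.73, 1.99 and 2.24 in sham. All day 7 libraries were above sham, by a log2 fold change of 1.01 (SE 0.398, adjusted p = 0.84, limma), and by 0.52 without REST cKO SCI day 7 replicate 13. Xiap, the gene of the IAP that binds caspases directly, measured 2.68, 2.74 and 2.99 against 1.76, 1.88 and 1.91. It did not overlap sham either, with a log2 fold change of 1.24 (adjusted p = 0.8609). Bbc3 measured 0.23, 1.75 and 1.98 and overlapped sham, with a log2 fold change of 1.44 (adjusted p = 0.8673), or 0.79 without REST cKO sham replicate 6.

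The deletion of Rest without injury was compared in sham. Again 0 of 50 members passed (0.0302% of all genes, 3 genes), 1 had an unadjusted p under 0.05 (6.91% of all genes) and 3 did not overlap (7.86% of all genes). The first was Trp53bp1, which encodes the DNA repair protein 53BP1. It measured -3.53, -0.82 and -0.53 in REST cKO and -0.86, 0.97, 1.20 and 1.51 in WT, so the groups just overlapped. The log2 fold change was -2.95 (SE 1.35, adjusted p = 0.6861, limma), or -1.43 without REST cKO sham replicate 6. Bbc3 was next at -1.38 (SE 0.681, adjusted p = 0.7309), or -0.60 without the same replicate, with values of -0.73, -0.40 and 1.76 in REST cKO and 0.99, 1.04, 1.33 and 1.40 in WT. REST cKO sham libraries were all male, WT sham 2 male and 2 female. Neuronal marker sums were 44.3 to 74.4 in REST cKO sham and 19.5 to 40.2 in WT sham, microglial sums 96 to 117 and 119 to 138, and astrocyte sums 24.6 to 36.1 and 12.5 to 18, with no overlap in any of these, and their part was not tested.

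At day 1 after SCI, 0 of 50 members passed between genotypes (0% of all genes) 1 had an unadjusted p under 0.05 (3.81% of all genes) and 8 did not overlap (18.6% of all genes). The first was Pdcd5-ps, at 1.15 and 1.25 in REST cKO and -2.92, -0.20 and 2.45 in WT, with a log2 fold change of 2.35 (SE 1.1, adjusted p = 0.9993, limma). It was 0.39 without WT SCI day 1 replicate 8, and in batch 2, the only one that held both groups, the difference was -1.30. Pdcd10 followed with 1.30 and 1.89 against -0.61, -0.02 and 0.55, a log2 fold change of 2.91 (SE 1.5, adjusted p = 0.9993) with no overlap. It was 1.63 without the sequencing components, 0.76 within batch 2, and between 2.02 and 4.07 when REST cKO SCI day 1 replicate 25 or 19 was left out.

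At day 3 after SCI, 0 of 50 members passed between genotypes (0% of all genes), 3 had an unadjusted p under 0.05 (6.37% of all genes) and 5 did not overlap (7.59% of all genes). Pmaip1 measured -0.85, 0.50, 1.16 and 1.77 in REST cKO and -2.83, -2.15 and -1.21 in WT. Every REST cKO library was above every WT library, with a log2 fold change of 3.19 (SE 0.912, adjusted p = 0.645, limma), which ranked 27 of all genes by p. Within batches the difference was 4.60, 2.98 and 0.36 for batches 1, 2 and 3.

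The AIF genes that were high in WT at day 3 were lower in REST cKO than in WT on that day. Aifm3 measured -0.35, -0.11, 0.11 and 0.87 in REST cKO against 1.14, 2.05 and 2.24 in WT, a log2 fold change of -2.15 (SE 0.707, adjusted p = 0.6499, limma). Aifm2 measured -3.02, -2.20, -2.05 and 0.71 against 1.27, 1.75 and 1.89, a log2 fold change of -3.87 (SE 1.35, adjusted p = 0.6499). Neither gene overlapped between genotypes, and Aifm3 was lower within each batch, by -1.49, -2.05 and -1.37. The WT libraries are the same ones that stood above WT sham. In REST cKO sham Aifm2 already measured -3.05, -1.68 and -1.63. At day 7 Aifm3 was higher in REST cKO without overlap, at 0.29, 0.37 and 0.70 against 0.04, 0.15 and 0.19 in WT. Neuronal marker sums at day 3 were 36.9 to 43.6 in REST cKO and 39.1 to 47.8 in WT, and microglial sums 122 to 141 and 120 to 151. Oligodendrocyte sums, at 9.08 to 12.8 in REST cKO and 12.9 to 16.1 in WT, did not overlap, and their part was not tested.

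Between genotypes, the share of genes at an unadjusted p under 0.05 was highest at day 7, for all genes and for the members. In limma, 0 of 50 members passed an adjusted p of 0.1 (0% of all genes), 6 had an unadjusted p under 0.05 (9.95% of all genes) and 7 did not overlap (12.4% of all genes). Of the 6, 4 were higher in REST cKO (7.73% of all genes), Ddit4l, Pmaip1, Pdcd6 and Birc6, and 2 were lower (2.22%), Bcl2a1b and Pdcd7. Ddit4l measured 0.82, 1.22 and 2.20 in REST cKO and -3.69, -3.19 and -2.44 in WT. The gap between the nearest libraries was wider than the range within either group. Its log2 fold change of 4.75 (SE 1.25, 95% interval 2.17 to 7.33) had an adjusted p of 0.1832 in limma and ranked 44 of all genes. Within batches 1 and 2 the difference was 4.66 and 3.26. All 3 WT values were below -2, and the share of all values below -2 was 11.1% to 17% in the WT libraries of day 7 and 2.77% to 10.7% in those of REST cKO, with no overlap. With a term for that share the log2 fold change of Ddit4l was 4.01 (adjusted p = 0.2449, limma). In sham, Ddit4l measured -1.45, 0.36 and 2.34 in REST cKO, a range that held all 4 WT sham libraries.

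Pmaip1 measured 0.49, 2.15 and 2.44 in REST cKO at day 7 and -1.89, -0.07 and -0.04 in WT, again without overlap. Its log2 fold change was 2.67 (SE 0.911, adjusted p = 0.2863, limma), down to 1.68 without WT SCI day 7 replicate 12, and it was 2.49 and 4.05 within batches 1 and 2. Pdcd6 measured 2.39, 2.68 and 3.57 against 1.51, 2.20 and 2.38, a log2 fold change of 0.89 (SE 0.373, adjusted p = 0.4189), or 0.49 without REST cKO SCI day 7 replicate 13. Birc6 measured -0.04, 1.50 and 2.51 against -0.23, 0.05 and 0.35, with 1 library inside the WT range and a log2 fold change of 1.31 (adjusted p = 0.4907). It was 2.45 within batch 1 and -0.09 within batch 2, and ran from 0.75 without REST cKO SCI day 7 replicate 2 to 2.24 without replicate 13 of that group. Xiap, at 2.68, 2.74 and 2.99 against 1.33, 2.15 and 2.27, did not overlap, and its log2 fold change was 1.04 (SE 0.514, adjusted p = 0.5077).

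On the lower side, Pdcd7 measured -0.13, 0.20 and 1.06 in REST cKO and 1.11, 1.41 and 2.61 in WT, a log2 fold change of -1.32 (SE 0.612, adjusted p = 0.4756, limma). The nearest libraries were close, at 1.06 and 1.11, and the difference was -1.99 within batch 1, -0.35 within batch 2 and, fitted without WT SCI day 7 replicate 7, -0.81. Bcl2a1b, an anti-apoptotic BCL2 relative known from blood-derived cells, measured 2.55, 2.72 and 2.77 against 3.07, 3.09 and 3.39, a log2 fold change of -0.53 (SE 0.24, adjusted p = 0.4621), or -0.26 with a term for sex. Microglial marker sums were 116 to 123 in REST cKO and 123 to 139 in WT at day 7, neuronal sums 37.5 to 63.7 and 22.8 to 39.6, and their part in the differences was not tested. All WT libraries of day 7 were female and all REST cKO libraries male, so that genotype and sex cannot be told apart at this day.

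By role at day 7, the 6 anti-apoptotic BCL2 genes were split, 3 positive and 3 negative, with a median log2 fold change of 0.02 and 1 at an unadjusted p under 0.05. Of the 5 BH3-only genes 3 were positive (median 0.37), of the 6 caspase genes, with the caspase 8 partner Casp8ap2, 5 (0.43), and of the 5 IAP and DIABLO genes 4 (0.83). The 8 genes of p53 and its regulators were split evenly (-0.12), and 6 of the 9 Pdcd genes were negative (-0.42). Over all 50 members the median was 0.19 and 29 were positive, against a median of 0.23 and 60.5% positive over all genes.

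The core of the mitochondrial pathway gave wide intervals at day 7. For Bcl2 the log2 fold change was 0.31 (95% interval -1.16 to 1.78), for Bcl2l1 (BCL-XL) 0.67 (-0.88 to 2.22) and for Mcl1 -0.18 (-0.60 to 0.24). For Bax it was 0.19 (-2.03 to 2.41), for Bad -0.08 (-2.31 to 2.15), for Bid 1.20 (-1.41 to 3.80), for Bcl2l11 (BIM) 0.37 (-1.22 to 1.97) and for Bbc3 -0.40 (-1.70 to 0.91). Only the interval of Mcl1 lay within 1 log2 unit of 0 among these genes. For Apaf1, downstream of the mitochondria, it was -0.55 (-3.08 to 1.99), and for the upstream stress regulators it was -1.75 (-4.33 to 0.83) for Trp53 and -0.48 (-3.26 to 2.30) for Ddit3. Adjusted p in limma was between 0.6894 for Trp53 and 0.9899 for Bad over these genes. Trp53 measured -1.45, -0.82 and 1.81 in REST cKO and 0.75, 1.83 and 2.15 in WT, so the groups overlapped.

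**Figure D4:**
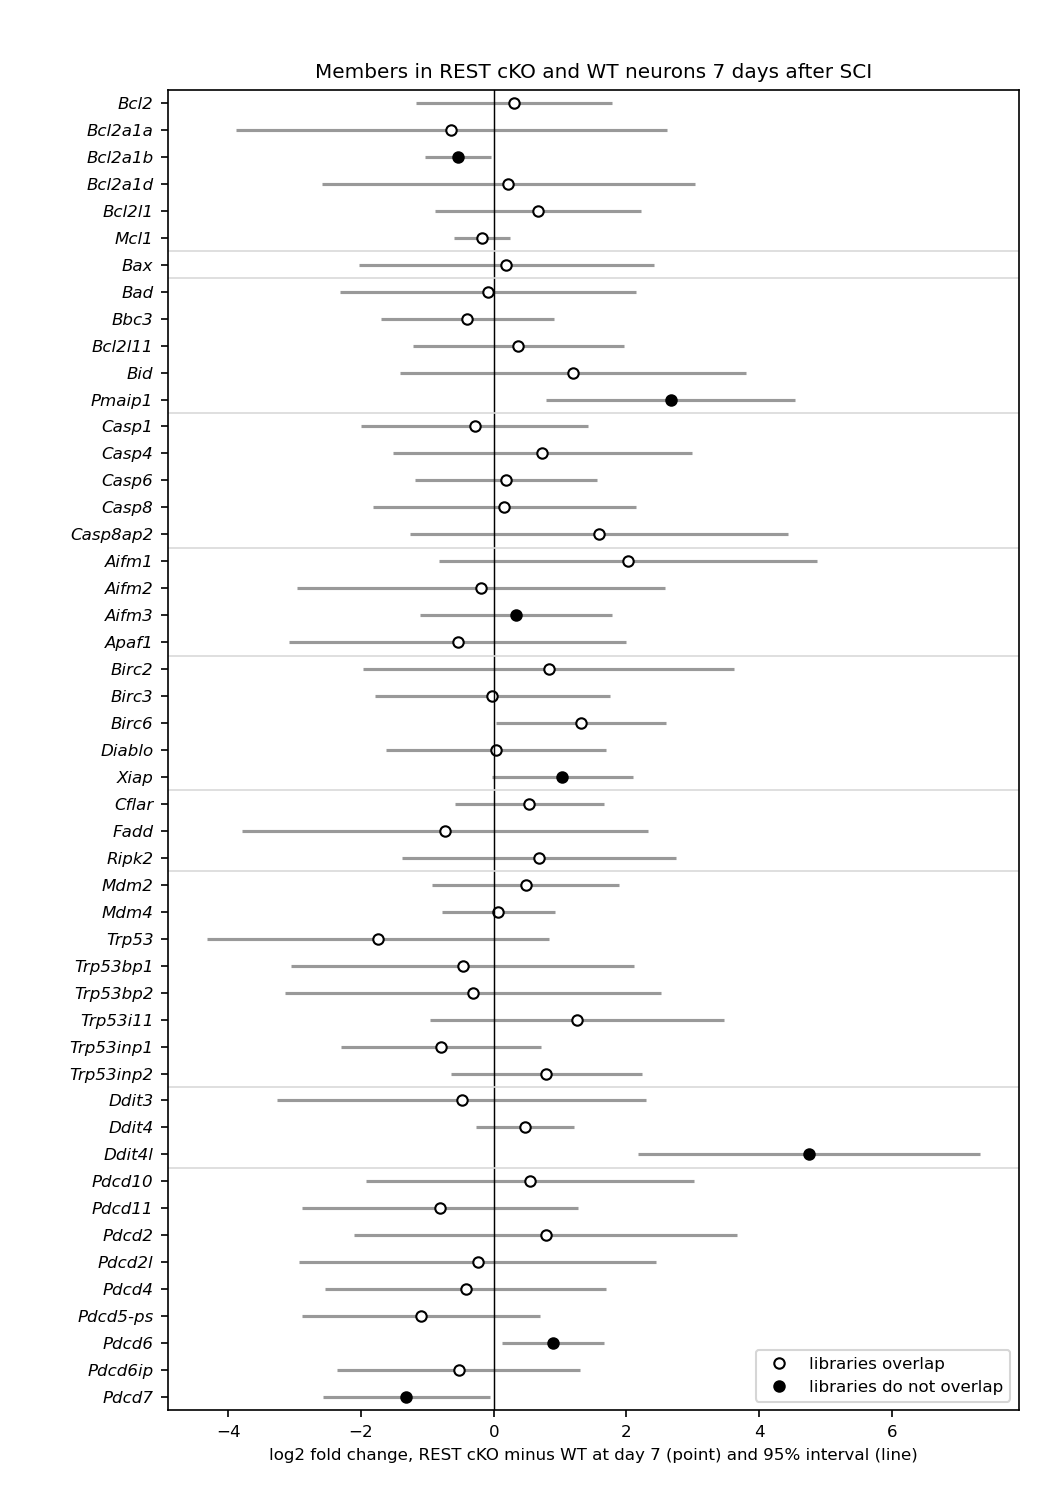
Log2 fold change of REST cKO over WT 7 days after SCI (horizontal axis) for 49 of the 50 members (rows, by role), with the 95% interval of the limma fit as a line. Filled points are the 7 members whose libraries did not overlap, with Ddit4l at 4.75 and Pmaip1 at 2.67, and open points those whose libraries did.

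The genotype by injury interaction took the difference between REST cKO SCI and its sham and subtracted that between WT SCI and its sham. At day 1, 0 of 50 members passed (0% of all genes) and 1 had an unadjusted p under 0.05 (5.77% of all genes). That was Pdcd7, at -1.97 (SE 0.881, adjusted p = 0.8145, limma), and Trp53 followed at 3.61 (SE 1.81, adjusted p = 0.873), or 2.40 without WT SCI day 1 replicate 1. At day 3, 0 passed (0% of all genes) and 4 had an unadjusted p under 0.05 (5.15% of all genes). Aifm3 gave -3.58 (SE 1.15, adjusted p = 0.9118), Pdcd10 -4.91 (SE 1.95, adjusted p = 0.9503) and Pmaip1 3.47 (SE 1.48, adjusted p = 0.9503), beside the value of Mcl1 given above. Without the sequencing components Pdcd10 was at -2.70 and Aifm3 at -2.44.

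At day 7 the interaction passed for 0 of 50 members (0.0201% of all genes, 2 genes), with 4 at an unadjusted p under 0.05 (6.35% of all genes). Pdcd6 gave 1.61 (SE 0.56, adjusted p = 0.6513, limma), or 1.05 without REST cKO SCI day 7 replicate 13, and Pdcd7 -2.41 (SE 0.918, adjusted p = 0.6626). Ddit4l gave 4.65 (SE 1.88, adjusted p = 0.6919) and Pmaip1 2.95 (SE 1.37, adjusted p = 0.7815). In Pdcd7 the 2 genotypes had opposite courses in the mean: WT was higher at day 7 than sham, and REST cKO, at 0.70, 1.31 and 1.84 in sham, had all but 1 of its 3 day 7 libraries below its sham range.

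**Figure D5:**
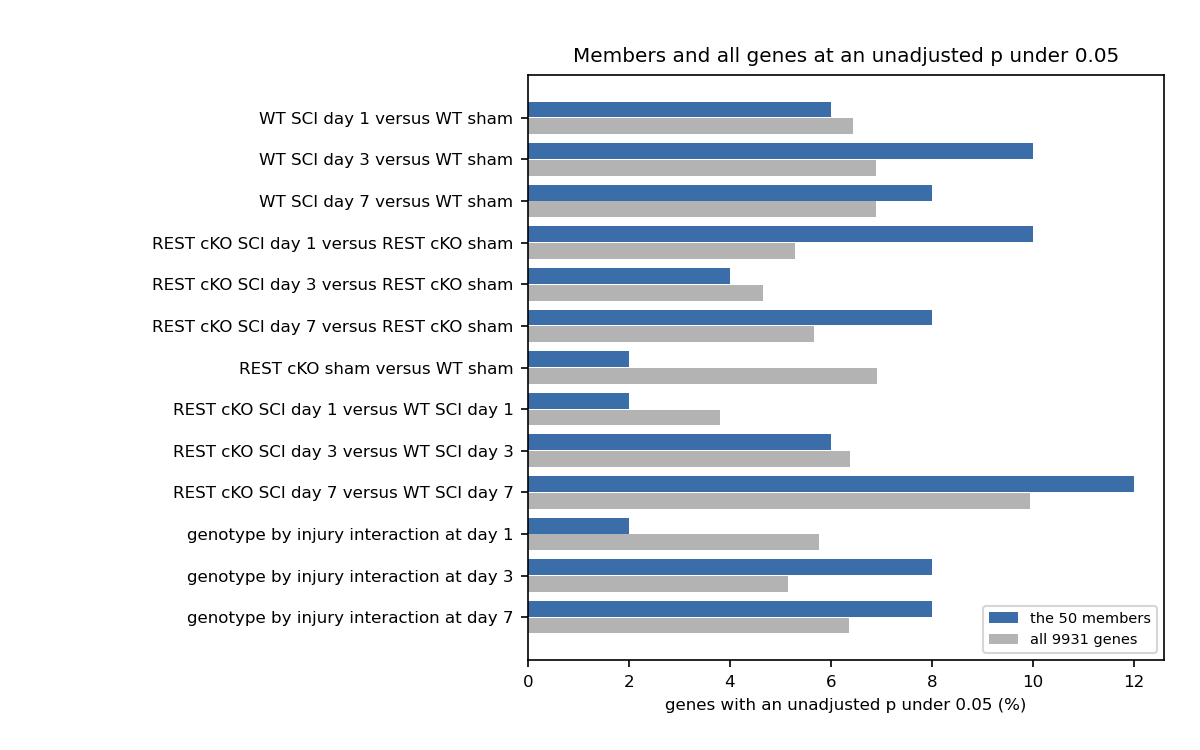
Share of genes with an unadjusted p under 0.05 (horizontal axis, percent) among the 50 members (blue) and all 9931 genes (grey) in the 13 comparisons (rows). The shares of the members run from 2% to 12% and lie on either side of those of all genes, which run from 3.81% to 9.95%.

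Companion genes of the pathway outside the set were followed at day 7 between genotypes, and 0 of the 89 genes in 8 lists passed the adjusted threshold in limma, with 10 at an unadjusted p under 0.05 (9.95% of all genes). In each list the gene with the smallest p is named. Chac1, a glutathione-degrading target of the ATF4 and CHOP stress response, had a log2 fold change of 4.23 (SE 1.31, adjusted p = 0.2384, limma). Its WT mean at day 7 was -2.78, near the low end of the values. Over the alternatives other than leaving out a library, its log2 fold change ran from 2.99 to 4.84. Of the 17 measured members of its list 6 were positive, against 60.5% of all genes. Mapk10, the neuronal kinase JNK3, had 3.26 (SE 0.905, adjusted p = 0.2321), with 8 of 12 axon injury kinases positive. Foxo1, a transcription factor that AKT keeps out of the nucleus, had 2.27 (adjusted p = 0.3362). Ninj1, which ruptures the membrane of dying cells, had -2.88 (adjusted p = 0.2639), or -1.86 without REST cKO SCI day 7 replicate 13, and Rrm2b, a p53-induced subunit of ribonucleotide reductase, -2.91 (adjusted p = 0.2691). None of these 5 overlapped between genotypes (12.4% of all genes did not), but they were picked for their p. Dapk1, a death-associated kinase, Vdac1, a channel of the outer mitochondrial membrane, and Bmf, a BH3-only gene, had 1.18, 1.09 and 1.02 with adjusted p of 0.5354, 0.5656 and 0.7043. Without 1 library each, WT SCI day 7 replicates 12, 7 and 4 in that order, these were 0.51, 0.44 and 0.42, and within batch 2 Vdac1 was at -0.18 and Bmf at -0.12. The list of mitochondrial and nuclear execution genes had 11 of its 12 members positive (60.5% of all genes) with 0 at an unadjusted p under 0.05.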

How the data were processed

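The authors aligned 3′ reads (QuantSeq) to mm10 with STAR and Salmon, scaled counts with DESeq2, removed unwanted variation and genes without counts in most samples, and deposited log2 expression values beside p-values and fold changes of their own comparisons, which were not used. The study gives a mean depth over its libraries, but no depth per library is in the table, the values run from -4.82 to 5.16, and the log base was read from the study. For all but 140 of the 9931 genes, the deposited values had a correlation below 1e-05 with both sequencing components, so these had been removed already.

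All 9931 genes were fitted with limma 3.58.1 (R 4.3.3) on the deposited log2 values, with 1 mean per group, both components and a mean-variance trend, and p-values were adjusted by Benjamini-Hochberg over all genes at 0.1. Fitted fold changes therefore differ from differences of group means, by more than 1 log2 unit for Pdcd10. There were 25 libraries. The study counts mice as replicates, but the labels tie no library to a mouse and the groups here hold 2 to 4 libraries, so p-values measure the spread between libraries. Named are core genes that had a row, the 2 members with the smallest p in each of 13 comparisons, members past the threshold and 1 companion gene per list. The others were named after their values were seen. The members and lists were chosen with earlier results of these data known. Tested on simulated data for REST cKO against WT at day 7, over 9931 genes with 200 changed, the fit recovered 3.5%, 24.5% and 51% of changes of 1, 2 and 3 log2 units. Alternatives changed the components, the threshold, the trend, the libraries, a low-value filter, library weights, quantile normalisation and terms for sex or batch. 1 member is counted with the others but its own values are not reported here. 24 rows without a symbol were left out. Sequences were read with Python 3.11.15.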

Additional observations from a re-analysis of the deposited data

Results flagged for a closer look

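In 4 of 98 groups of 4 libraries tested among the members, 1 library stood apart from the others by more than Dixon's 95% limit, and chance gives about 1 in 20. Bad, a BH3-only gene, was at -0.90 in WT sham replicate 17 and between 0.96 and 1.26 in the other libraries of the group. Casp1, the inflammasome caspase, was at -0.17 in the same library and between 0.75 and 0.80 in the others. Trp53inp2, an autophagy gene, was at 1.84 in WT sham replicate 10, against 0.58 to 0.77. Mdm4, a p53 inhibitor, was at 1.15 in REST cKO SCI day 3 replicate 9, against 2.72 to 2.92.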

How the results depend on the processing

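No member passed the threshold in any of the 13 comparisons under any of the alternatives run, which are the ones named with the processing, leaving out each library in turn, and a term for the share of values under -2, chosen after seeing the data. Counts over all genes moved more, from 0 to 24 for WT day 1 against sham, 0 to 21 for REST cKO against WT at day 7, 0 to 13 in sham, and at most 12 elsewhere. The smallest adjusted p of Ddit4l at day 7 between genotypes was 0.1363, without WT SCI day 3 replicate 5, and the largest 0.5309. Differences within single batches, given above, were not among these alternatives, and some had the opposite sign. Among the differences followed under the alternatives, directions turned only for small ones of REST cKO against WT at day 7. Bcl2 was -0.0082 after quantile normalisation. Bad was 0.18 without the components, whether all groups or only the groups compared were fitted, and with a term for sex Ddit3 was 0.28. The cause was not tested. Leaving out single libraries, values ran from -0.37 to 1.00 for Bcl2, -0.32 to 0.50 for Bax, -0.36 to 0.22 for Bad, -0.22 to 0.90 for Bcl2l11, -0.79 to 0.0777 for Bbc3, 0.46 to 1.05 for Bcl2l1, -0.24 to -0.09 for Mcl1, 0.20 (without WT SCI day 7 replicate 12) to 1.96 for Bid, -2.71 to -0.78 for Trp53, -2.35 to 0.70 for Apaf1 and -2.62 to 0.85 for Ddit3. Over the other alternatives they ran from -0.01 to 0.50 for Bcl2, 0.35 to 0.89 for Bcl2l1, -0.21 to -0.05 for Mcl1, 0.05 to 0.28 for Bax, -0.56 to 0.18 for Bad, 0.82 to 2.23 for Bid, 0.24 to 0.53 for Bcl2l11, -0.60 to -0.12 for Bbc3, -2.19 to -0.55 for Apaf1, -1.85 to -0.72 for Trp53 and -1.20 to 0.28 for Ddit3. A term for sex gave the 2.23 of Bid, the -2.19 of Apaf1 and the -0.72 of Trp53. No paired analysis was possible because the replicate numbers are library numbers that occur once each. With a median standard error of 0.983 log2 units over the members at day 7, a difference of 1 log2 unit was rarely detectable with this fit. The paper, also with limma at an FDR under 0.1, reported many genes changed by REST deletion at day 7. Here 0 of all genes passed in that comparison. The paper's fit was set up differently, and the reason for the gap was not tested.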
